A study of Homo sapiens with 6 samples.

Results

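The genes described here are 10 genes of the extracellular matrix, 9 of them matricellular and the last one fibronectin itself. They are THBS1, THBS2, SPARC, TNC, FN1, TGFBI, POSTN, CTGF, CYR61 and NOV, chosen by gene symbol out of 24462 symbols in the count files, and each of them occurred in 1 row. RNA-seq counts were available for 6 libraries of PC3, a human prostate cancer line that was established from a metastasis in bone. In 3 libraries, labelled si-Control here, the cells had received a non-targeting siRNA, and in the other 3, labelled si-CITED2, they had received siRNA against CITED2, a transcriptional co-regulator that binds CBP and p300. Both groups were given 80 nM of siRNA for 72 h and carried no other treatment, so that all values come from 1 cell line cultured on its own, without the fibroblasts that surround a tumor. The study's legends describe the experiments as independent.

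Matricellular proteins are secreted into the matrix but serve more as signals than as scaffold. They bind integrins, proteoglycans and growth factors and thereby change how cells adhere, spread and migrate. Fibronectin is the adhesive glycoprotein on which many of them are deposited. In tumors, stromal fibroblasts are a major source of several members, such as periostin (POSTN) and SPARC, whereas CTGF, CYR61 and THBS1 are also made by epithelial cells and are well-known targets of TGF-β, SRF and YAP signaling.

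The total count was between 19508925 and 28936374 per library, and 3 counts, taken as the smallest detectable number, corresponded to 0.104 to 0.154 CPM, the counts scaled to an equal total in every library. The target gene did not follow the labels. CITED2 mRNA was at 841.2 ± 61.4 normalized counts (SD, n = 3) in the si-Control libraries and 996.4 ± 82.4 normalized counts (SD, n = 3) in those labelled si-CITED2, a log2 fold change of 0.24 (adjusted p = 0.03626, edgeR), and the study took its knockdown from the protein. CITED2 was no longer called when si-Control replicate 1 or 3 or si-CITED2 replicate 1 or 3 was left out (adjusted p = 0.05363, 0.1408, 0.1539 and 0.08461, edgeR), and its direction did not turn. Each direction given here is therefore a direction between libraries as they were labelled. The 5 epithelial markers summed to 1819.3 to 1908.6 CPM in the si-Control libraries and 1935.9 to 2118.7 CPM in the libraries labelled si-CITED2, where 2 of them, KRT8 and KRT18, were higher (log2 fold changes 0.24 and 0.18) and 2, CDH1 and EPCAM, were lower (-0.52 and -0.33). Their part in the results was not tested. Of the fibroblast markers, DCN had at most 1 count, LUM at most 2 and PDGFRB at most 12 in any library. THY1 had 18 counts in si-CITED2 replicate 1 and at most 5 elsewhere. The summed level of the 6 fibroblast markers was 0.226 to 0.805 CPM in the si-Control libraries and 0.484 to 1.74 CPM in the libraries labelled si-CITED2, where PDGFRA had 11, 8 and 7 counts against 1, 1 and 2. The 4 endothelial markers summed to at most 0.969 CPM. Among the 4 leukocyte markers, PTPRC had at most 2 counts, CD3E at most 1 and CD14 at most 15. The lysosomal gene CD68 accounted for nearly all of the sum of 121.4 to 145.7 CPM. KLK3, which PC3 expresses little or not at all, had at most 2 counts.

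The promoters of 3 of the genes whose counts differed between the groups are shown to place the motifs searched. Sequences are those of RefSeq (GRCh38.p14), of which 8 of the 10 genes were matched, and each is given 5′ to 3′ on the strand of the gene. They begin 250 bases before the annotated start and end at the start or where an annotated exon begins. Capitals mark CAGAC, a SMAD motif, GGAATG, a TEAD motif, and TATAAA, the TATA box. The CTGF promoter (chr6:131951374-131951622, minus strand) held 1 match of CAGAC, 3 of GGAATG and 1 of TATAAA, the THBS1 promoter (chr15:39580829-39581078, plus strand) held 1 of CAGAC and 1 of GGAATG, and the TGFBI stretch (chr5:136028738-136028894, plus strand) held none.
CTGF: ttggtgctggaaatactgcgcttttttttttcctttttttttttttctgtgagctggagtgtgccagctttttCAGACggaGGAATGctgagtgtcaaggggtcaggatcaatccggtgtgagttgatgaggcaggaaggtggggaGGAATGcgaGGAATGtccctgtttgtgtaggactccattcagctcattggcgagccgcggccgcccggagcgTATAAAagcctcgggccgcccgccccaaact
THBS1: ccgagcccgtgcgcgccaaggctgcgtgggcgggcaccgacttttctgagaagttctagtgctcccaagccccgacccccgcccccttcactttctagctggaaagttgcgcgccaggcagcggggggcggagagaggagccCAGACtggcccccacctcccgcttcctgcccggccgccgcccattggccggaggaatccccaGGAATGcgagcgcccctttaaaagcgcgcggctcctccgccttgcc
TGFBI: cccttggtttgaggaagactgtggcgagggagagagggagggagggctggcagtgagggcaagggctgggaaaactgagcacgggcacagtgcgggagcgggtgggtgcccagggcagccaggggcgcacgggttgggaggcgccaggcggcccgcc

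Both strands were searched, and no match overlapped another. In the same 250-base window of 27305 RefSeq promoters, CAGAC was found in 37.8%, GGAATG in 11.9% and TATAAA in 11.1%. The 3 GGAATG matches of CTGF began 169, 104 and 95 bases before the start, and that of THBS1 began 46 bases before it. GGAATG was also found in the promoters of THBS2 (2 matches) and SPARC (1 match), which had few counts. The AP-1 motif TGANTCA, present in 6.6% of all promoters, occurred once in POSTN and in none of the other 7. The palindromic SMAD motif GTCTAGAC (0.176% of promoters) and the CArG box bound by SRF (1.14%) had no match in any of the 8. FN1 and TGFBI had no match of any motif in the 250 bases. These bases held 76.4% and 72.8% G and C against a median of 58% over all promoters. For TGFBI, 93 of the 250 bases lie in its own annotated exon and are not printed above. TNC had a single CAGAC match. The motifs thus did not divide the genes searched by how their counts differed, and a match describes letters only. CYR61, whose counts also differed, and NOV had no promoter entry and were not searched. SPARC and POSTN had too few counts to be tested for a difference.

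Of the 10 genes, 7 passed the filter on low counts and entered the test across 16314 genes, in which edgeR's quasi-likelihood test called 17.4% of the genes at an adjusted p under 0.05, 9.36% as higher and 8.09% as lower in the libraries labelled si-CITED2. TGFBI, CTGF, THBS1 and CYR61 were higher, which is 4 of the 7 tested members. Their groups did not overlap, as was the case, with the higher values in the libraries labelled si-CITED2, for 16.4% of all genes tested. TNC, FN1 and THBS2 were not called in either direction. The number of members called lower was 0 in edgeR, also at an unadjusted p under 0.05, and 0 in DESeq2. The median log2 fold change of the 7 members was 0.80, beside -0.0014 over all genes tested. The other 3 members, SPARC, POSTN and NOV, had too few counts to be tested.

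**Figure D1:**
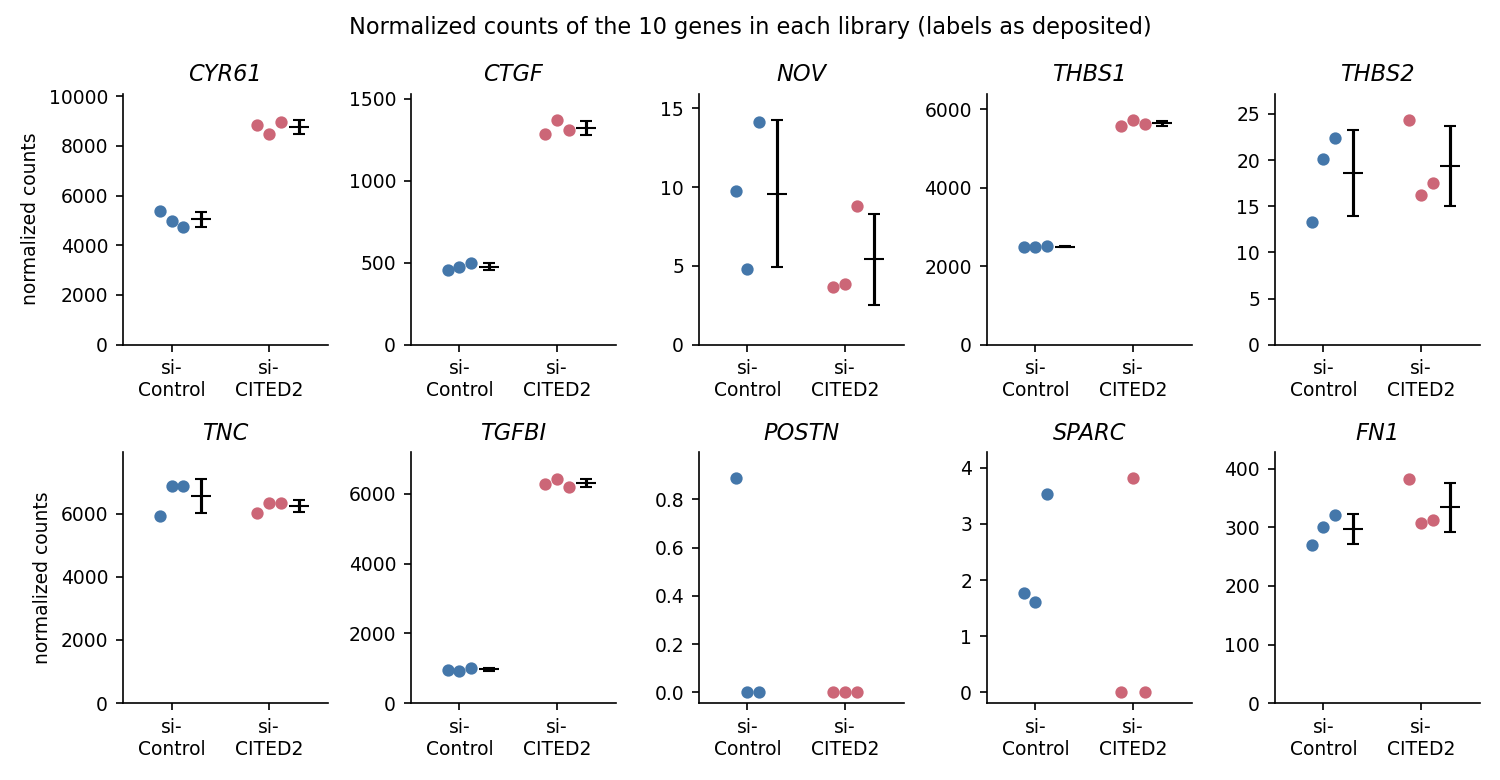
Normalized counts (vertical axes, each starting at or just below 0) of the 10 genes in the 3 libraries labelled si-Control (blue) and the 3 labelled si-CITED2 (red), with the mean and SD beside the points except for SPARC and POSTN. The red points lie above all blue points for CYR61, CTGF, THBS1 and TGFBI, and the points of the groups overlap for the other 6 genes.

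TGFBI encodes a secreted fasciclin-domain protein that was named for its induction by TGF-β and that binds integrins and collagens. It showed the largest difference among the 10 genes. In the si-Control libraries it was at 964.3, 929.9 and 1013.1 normalized counts, and in the libraries labelled si-CITED2 at 6287.5, 6428.5 and 6194.5. The means were 969.1 ± 41.8 and 6303.5 ± 117.8 (SD, n = 3 each), so that the gap between the groups was many times the spread within them. The log2 fold change was 2.70 (standard error 0.053, adjusted p = 2.374e-15 by edgeR), a 6.51-fold higher level with a 95% interval of 6.02 to 7.05. This was the 32nd largest rise of the 16314 genes tested. POSTN, which encodes periostin, the closest relative of the TGFBI protein, was not expressed at a measurable level. It had 1 count in si-Control replicate 1 and 0 counts in the other 5 libraries, and no fold is given for it. The detection limit of 3 counts, a chosen value, corresponded to 0.104 to 0.154 CPM in these libraries.

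The CCN genes encode cysteine-rich secreted proteins that bind integrins and heparan sulfate. CYR61 (CCN1) is an immediate early gene whose protein supports cell adhesion. Its normalized counts were 5377.1, 4992.4 and 4754.7 in the si-Control libraries and 8842.3, 8461.8 and 8973.0 in the libraries labelled si-CITED2. The lowest of the latter lay far above the highest of the former, and the log2 fold change was 0.80 (standard error 0.053, adjusted p = 1.29e-08, edgeR). CTGF (CCN2), whose protein promotes matrix production, was at 457.7, 471.8 and 501.2 normalized counts in the si-Control libraries and at 1287.1, 1369.2 and 1311.4 in those labelled si-CITED2. Again the groups did not overlap, and the log2 fold change was 1.48 (standard error 0.065, adjusted p = 6.676e-11, edgeR), or 2.78-fold with a 95% interval of 2.53 to 3.06. The fold of CYR61 was 1.74, and its 95% interval of 1.61 to 1.88 lies below that of CTGF. Correspondingly, CYR61 had 10.6 ± 1.13 times the counts of CTGF in the si-Control libraries and 6.63 ± 0.391 times in the others (SD, n = 3), a ratio taken within each library and therefore free of the scaling between libraries. All 3 ratios of the former group lay above those of the latter (exact permutation test, two-sided, p = 0.1, the smallest that 3 libraries against 3 allow).

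NOV (CCN3), a CCN protein often found to oppose CTGF, was close to the limit of detection. It was counted 11, 6 and 12 times in the si-Control libraries and 3, 4 and 8 times in the libraries labelled si-CITED2. The values overlapped after normalization (9.58 ± 4.65 against 5.41 ± 2.91 normalized counts, SD, n = 3). The ratio of the summed counts, scaled for library size, was 0.598 with an interval of 0.298 to 1.15 that covers counting error only. A difference was thus not detectable at this depth, either way. When no filter on low counts was applied, NOV had an adjusted p of 0.508 in edgeR.

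Thrombospondin-1 and thrombospondin-2 are trimeric glycoproteins that inhibit angiogenesis, and thrombospondin-1 also activates latent TGF-β. THBS1 was at 2501.9, 2479.7 and 2525.0 normalized counts in the si-Control libraries and at 5579.6, 5721.4 and 5641.3 in the libraries labelled si-CITED2. Within a group the libraries were nearly level, with a coefficient of variation of 0.906% and 1.26%, below the 1.93% and 1.38% that counting alone would give. The log2 fold change was 1.17 (standard error 0.047, adjusted p = 1.723e-11, edgeR), a 2.26-fold higher level with a 95% interval of 2.11 to 2.42. On the opposite strand, 448 exon bases of THBS1 are shared with FSIP1, but FSIP1 was counted only 41 to 76 times per library. THBS2 was nearly silent, with 15, 25 and 19 counts in the si-Control libraries and 20, 17 and 16 in the others. Its 6 values were intermingled after normalization. The log2 fold change of THBS2 was 0.056 (standard error 0.33, adjusted p = 0.9375, edgeR), and its 95% interval, 0.637-fold to 1.70-fold, is wide enough to hold changes of moderate size in both directions. FSIP1 aside, the annotation lists 411 exon bases of THBS1 under the antisense transcript AC037198.2 and 195 of CTGF under AL133346.1, and reads of such partners cannot be told apart here.

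Tenascin-C (TNC), a hexameric glycoprotein that weakens the adhesion of cells to fibronectin, was counted at a high level in all 6 libraries. Its normalized counts were 5922.8, 6877.1 and 6860.9 in the si-Control libraries and 6034.9, 6346.3 and 6347.9 in the libraries labelled si-CITED2. Replicate 1 was the lowest in both groups, and the ranges overlapped. The log2 fold change was -0.070 (standard error 0.058, adjusted p = 0.4819, edgeR), with a 95% interval of 0.875-fold to 1.04-fold, which does not reach the fold of any of the 4 genes called. Leaving out si-Control replicate 1 moved the log2 fold change to -0.14 (adjusted p = 0.0523). TNC shares 129 exon bases with DEC1 on the opposite strand, which had at most 2 counts.

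FN1 encodes fibronectin, the ligand of integrin α5β1 and a common mesenchymal marker. It was at 269.3, 300.3 and 321.2 normalized counts in the si-Control libraries and at 382.5, 307.7 and 312.2 in the libraries labelled si-CITED2. A single library, si-CITED2 replicate 1, stood above the rest, while the other two lay within the si-Control range. The log2 fold change was 0.17 (standard error 0.11, adjusted p = 0.3445, edgeR), or between 0.957-fold and 1.32-fold at 95%. Without si-CITED2 replicate 1 it was 0.064 (adjusted p = 0.7802). SPARC, a collagen-binding protein made in quantity by fibroblasts and bone cells, was counted 2, 2 and 3 times in the si-Control libraries and 0, 4 and 0 times in the libraries labelled si-CITED2. These counts are around the detection limit of 3 counts, so no fold is given, and in bulk RNA fewer expressing cells and less RNA per cell cannot be told apart.

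**Figure D2:**
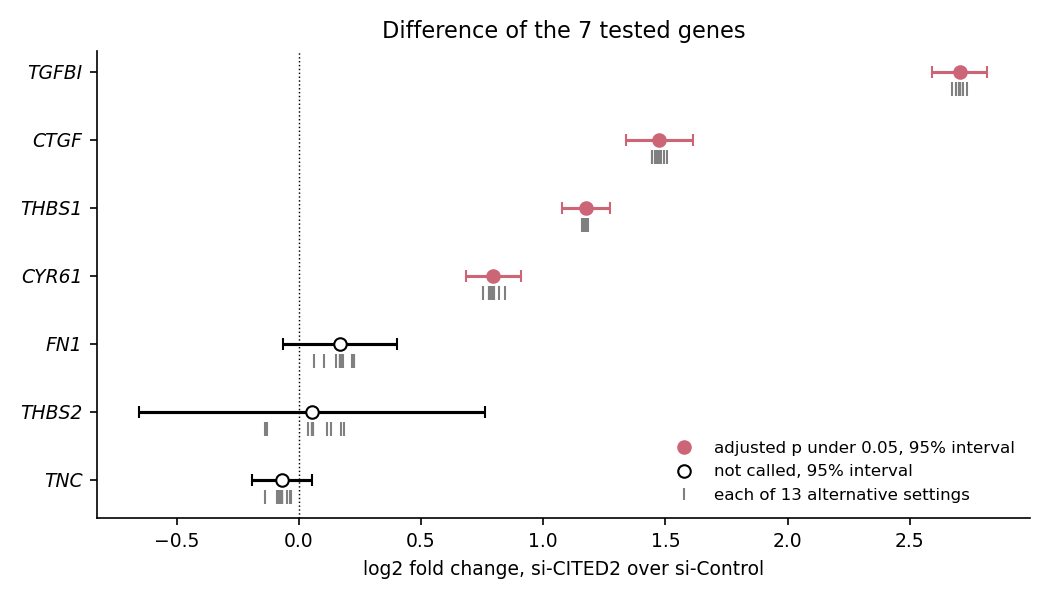
Log2 fold change (horizontal axis, libraries labelled si-CITED2 over si-Control) of the 7 tested genes with its 95% interval, filled where the adjusted p was under 0.05, and below each the values under 13 alternative settings (ticks). TGFBI, CTGF, THBS1 and CYR61 lie clear of 0 under all 13, the interval of THBS2 is the widest, and the intervals of TNC and FN1 include 0.

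Levels of different genes were put in order per length, as normalized counts per kb of annotated exon (GENCODE 29, all exons of a gene joined). Ratios of counts between genes and shares of the members' counts are not corrected for length. In the si-Control libraries CYR61 led with 2054 ± 128, followed by TNC with 680.1 ± 56.7, THBS1 with 273.2 ± 2.5, CTGF with 203.9 ± 9.5 and TGFBI with 124.1 ± 5.4 (SD, n = 3). FN1 stood lower, at 17.1 ± 1.5 per kb, and NOV and THBS2 were near 3.58 and 2.90 per kb with overlapping ranges. In the libraries labelled si-CITED2, CYR61 stayed first with 3568 ± 108 per kb. TGFBI moved from the fifth place to the second, at 807.1 ± 15.1 per kb, ahead of TNC at 647.9 ± 18.7, THBS1 at 616.7 ± 7.8 and CTGF at 565.4 ± 18 (SD, n = 3). Neighbours in each order had separate ranges over the 3 libraries, except NOV and THBS2 in both groups and SPARC and POSTN in the libraries labelled si-CITED2. Which isoforms the cells used is unknown, and a shorter FN1 or TGFBI transcript would raise the value per kb.

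**Figure D3:**
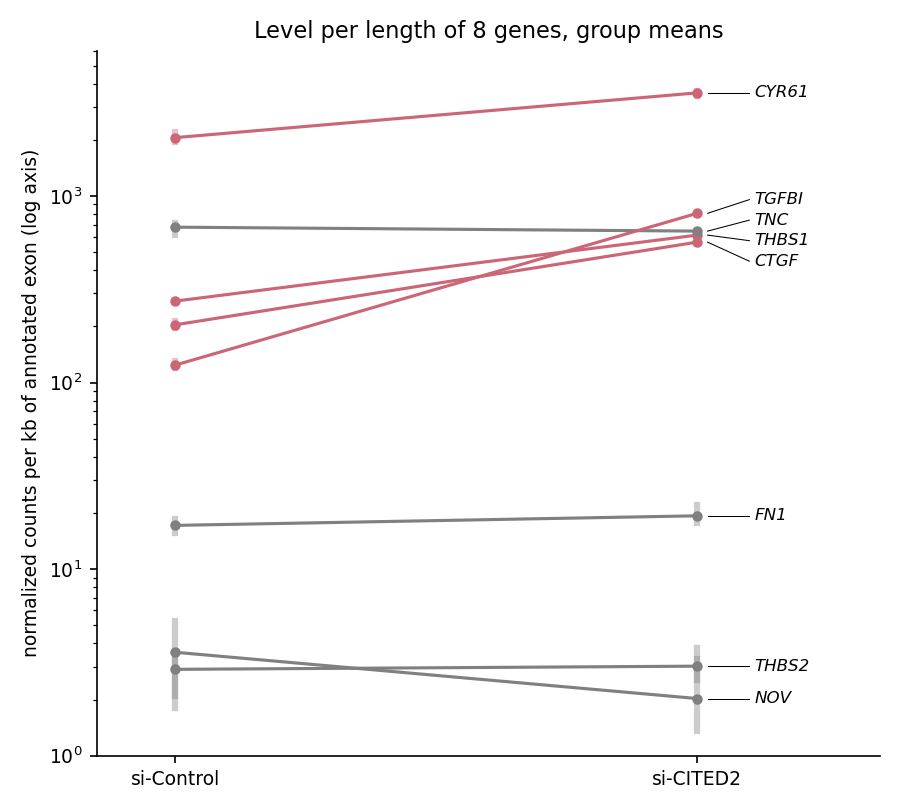
Mean normalized counts per kb of exon (vertical log axis) of 8 of the genes in the libraries labelled si-Control (left) and si-CITED2 (right), with vertical bars over the range of the 3 libraries and red lines for the 4 genes called higher. TGFBI climbs from 124.1 to 807.1 and crosses THBS1, CTGF and TNC, whereas the lines of TNC, FN1 and THBS2 are nearly level. SPARC and POSTN are not drawn because some of their libraries had 0 counts.

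The 10 genes together took 656.6 to 690.7 CPM of the si-Control libraries and 1202 to 1213 CPM of the libraries labelled si-CITED2. The difference of 530.3 CPM between the means came from 4 genes. TGFBI gave 42.3% of it, CYR61 29.1%, THBS1 24.8% and CTGF 6.68%, while TNC contributed -3.12%. The make-up of the members' counts changed accordingly. Without regard to gene length, TNC made up 41.3% ± 2.7 of these counts in the si-Control libraries and 21.8% ± 0.50 in the others (SD, n = 3), while TGFBI went from 6.11% ± 0.29 to 22.01% ± 0.47. CYR61 rose in step with the sum and held 31.8% ± 2.6 and 30.6% ± 0.92. Within each library, TGFBI had 0.149 ± 0.0138 counts per TNC count in the si-Control libraries and 1.01 ± 0.033 in the libraries labelled si-CITED2 (SD, n = 3), and THBS1 had 0.384 ± 0.034 and 0.905 ± 0.018. Relative to FN1, THBS1 went from 8.47 ± 0.74 to 17.1 ± 2.2 counts per FN1 count. None of these ratios overlapped between the groups (exact permutation test, two-sided, p = 0.1 each, the smallest possible). The ratio of TNC to FN1, neither of which was called, did not overlap either. Its range was 21.4 to 22.9 in the si-Control libraries and 15.8 to 20.6 in the libraries labelled si-CITED2. Separate ranges of a ratio therefore do not by themselves set the called genes apart.

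The gene most like TGFBI, the member with the smallest p, was another member. Over the 6 libraries the log2 CPM of THBS1 followed that of TGFBI with Pearson's r = 0.9998, ahead of ARHGEF18 (r = 0.9997), a guanine nucleotide exchange factor, and ADAM19 (r = 0.9996), a membrane-bound metalloprotease. These are descriptions over libraries that fall into the 2 labelled groups, and any gene that differs cleanly between the groups comes close to such a value. ADAM19 had a mean of 408.6 normalized counts in the si-Control libraries and 2800.4 in those labelled si-CITED2, a log2 fold change of 2.78.

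Beyond the 10 genes, 68 related genes were listed by family and function, and 44 of them entered the test. Of these, 11 were higher in the libraries labelled si-CITED2 and 0 were lower in edgeR (1, ASPN, was lower at an unadjusted p under 0.05, and 0 in DESeq2), where 9.36% of all genes tested were higher and 8.09% lower. The 11 include SPOCK1, which passed the filter on low counts only through the libraries labelled si-CITED2. The median log2 fold change of the 44 was 0.040, beside -0.0014 over all genes tested. The other members of the gene families showed little. THBS3 and THBS4, the tested relatives of the thrombospondins, TNXB among the tenascins and WISP2 (CCN5) among the CCN genes were not called, and TNR, TNN, WISP1 and WISP3 had at most 3 counts in any library. None of the 5 SIBLING genes, bone matrix phosphoproteins that include osteopontin (SPP1), had enough counts to be tested. Of 5 tested proteoglycan genes 0 were called by edgeR, 1 was lower at an unadjusted p under 0.05, and 0 were called by DESeq2. None of the 5 had a log2 fold change above 0, and the median was -0.54. The lowest values were -1.40 for ASPN (adjusted p = 0.05638, edgeR), -1.02 for OGN and -0.54 for BGN, all genes of few counts. ASPN and OGN reached the level set by the filter in all 3 libraries only in the si-Control group, where they were higher.

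In the SPARC family 1 of 4 tested genes was higher, and the median log2 fold change was 0.057. SPOCK1, which encodes the secreted proteoglycan testican-1, was counted 1, 7 and 1 times in the si-Control libraries and 67, 105 and 84 times in the libraries labelled si-CITED2. The log2 fold change was 4.98 (standard error 0.38, adjusted p = 6.262e-08, edgeR), and the summed counts scaled for library size had a ratio of 32.9 with a counting interval of 17.1 to 72.7. The low si-Control counts make this factor imprecise. SPOCK1 passed the filter on low counts only through the libraries labelled si-CITED2. It could therefore enter the test only as a higher gene, and its call and adjusted p are not taken as support. Of 15 tested microfibril and fibulin genes 3 were higher and 0 lower (also 0 lower at an unadjusted p under 0.05 and in DESeq2), beside 9.36% and 8.09% of all genes tested, and the median log2 fold change of the list was 0.11. MFAP2, a small microfibril protein, went from 191.6 ± 29.5 to 345.4 ± 36.4 normalized counts (log2 fold change 0.85, adjusted p = 0.0001238, edgeR). Fibrillin-1 (FBN1), which forms the microfibrils, and EFEMP1 (fibulin-3) had log2 fold changes of 0.69 and 0.65.

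Receptors of fibronectin and of the matricellular proteins formed the list with the most calls. Of its 16 tested genes 7 were higher and 0 lower in edgeR (also 0 lower at an unadjusted p under 0.05 and in DESeq2), against the 9.36% of all genes called higher, and its median log2 fold change was 0.18. ITGB3 and ITGAV encode integrin αVβ3, a receptor for several of the proteins described here. ITGB3 was at 240.4 ± 9.3 normalized counts in the si-Control libraries and 726.5 ± 22.4 in those labelled si-CITED2 (log2 fold change 1.59, adjusted p = 3.852e-10, edgeR). ITGAV went from 2306.1 ± 99.2 to 5824.0 ± 342.7 (log2 fold change 1.34), and ITGB5, another partner of the αV chain, had a log2 fold change of 1.04. Both chains of the classical fibronectin receptor were higher too, ITGA5 with a log2 fold change of 0.90 and ITGB1 with 0.34. SDC4 (syndecan-4), the heparan sulfate co-receptor for fibronectin, and CD47, which binds thrombospondin-1, had log2 fold changes of 0.77 and 0.32. FN1 itself, as given above, was not called. Receptors that were tested and not called include SDC1 (0.022), LRP6 (0.050), ITGA3 (-0.085) and, with few counts, CD36 (-0.66 on the log2 scale). Of the 16 tested genes, 11 had a log2 fold change above 0.

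**Figure D4:**
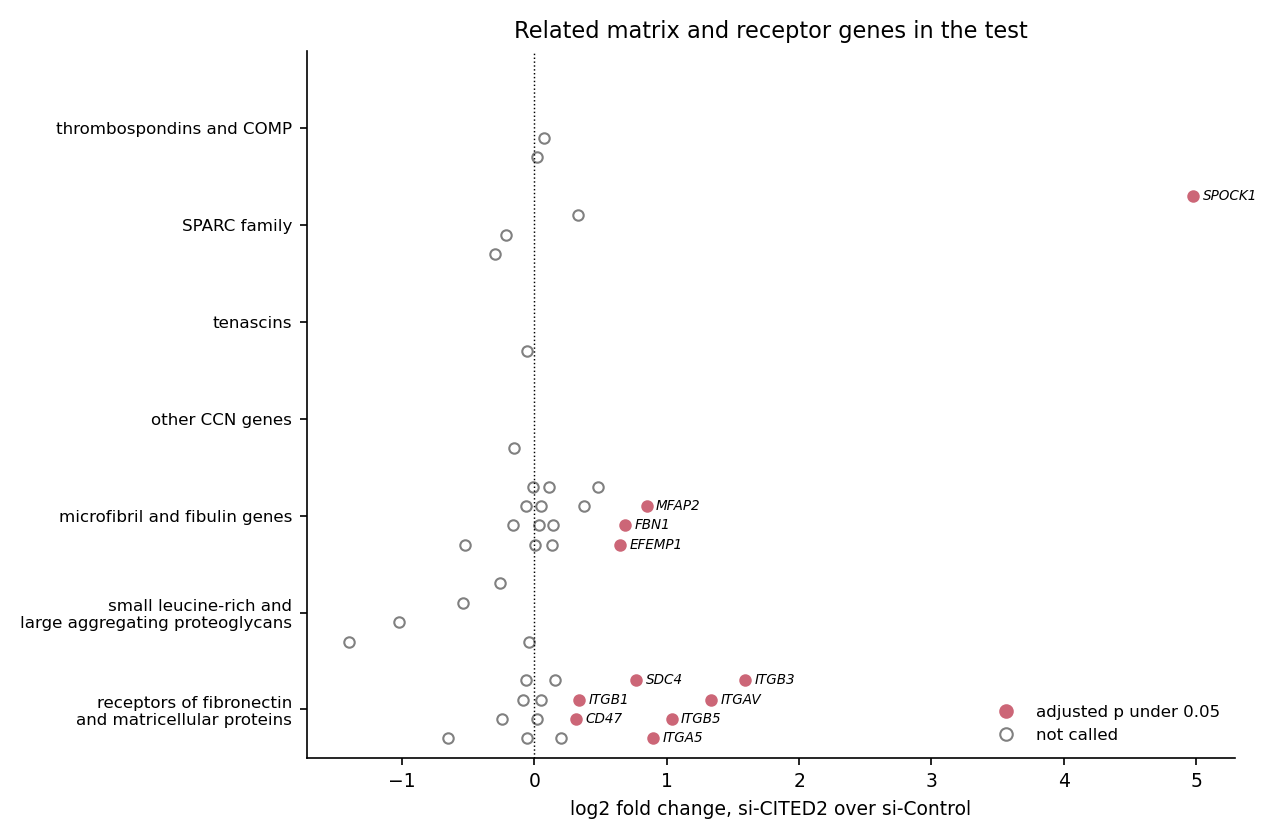
Log2 fold change (horizontal axis, libraries labelled si-CITED2 over si-Control) of the 44 tested genes of the related lists, 1 point a gene and 1 row a list, filled and named where the adjusted p was under 0.05. The 11 filled points lie to the right of 0, 7 of them among the receptors. SPOCK1 lies far from the rest at 4.98 and passed the filter only through the libraries labelled si-CITED2.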

How the data were processed

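RNA was taken from PC3 cells with Trizol and sequenced from SMARTer mRNA-Seq libraries. For each library the authors deposited a file of raw read counts by gene symbol, not normalized. The submitters' processing notes name TopHat, edgeR and the build hg19. The counting program, its use of strand and the annotation are not given in the sources used here, so reads shared with overlapping genes are uncertain.

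For symbols with several rows (286 of 24462) the row with most counts was kept. The analysis used edgeR 4.0.16 in R 4.3.3 (filterByExpr defaults, TMM, glmQLFit and glmQLFTest without a block, Benjamini-Hochberg adjustment over all 16314 genes tested). Standard errors came from the F statistic. Normalized counts were scaled by the effective (TMM) library size relative to its mean over the 6 libraries. Intervals of counts and the floor of 3 counts cover counting error only. The scripts were tested on simulated data. No pair of replicates agreed within sampling noise (the lowest chi-square divided by its degrees of freedom was 2.89). That they came from separate cultures rests on the study's legend. Otherwise p-values measure only the spread between these libraries.

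All 10 members were named, and from each list genes with an adjusted p under 0.05. The members and lists were chosen with earlier results of these data known. Alternatives were DESeq2 1.42.0, other scaling and filters, summed rows, a replicate block and leaving out each library. Protein sequences were not used here, and some planned marker genes are not reported here.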

Additional observations from a re-analysis of the deposited data

How the results depend on the processing

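The 7 tested genes were refitted under 13 alternative settings, and all 91 values kept their side of the threshold. The number of members called higher stayed at 4 and the number called lower at 0 throughout, also when each replicate was left out in turn. The log2 fold changes ranged from 2.67 to 2.73 for TGFBI, 1.45 to 1.51 for CTGF, 1.16 to 1.18 for THBS1 and 0.76 to 0.84 for CYR61. For the genes not called they ranged from 0.064 to 0.22 for FN1, -0.14 to -0.033 for TNC and -0.14 to 0.19 for THBS2, whose sign turned without si-Control replicate 1 (-0.14) and without si-CITED2 replicate 1 (-0.13). CITED2 mRNA was less stable. Its log2 fold change was 0.22 (adjusted p = 0.05184, edgeR) with library size in place of TMM, and 0.17 to 0.29 when single replicates were left out, with an adjusted p over 0.05 without si-Control replicate 1 or 3 and without si-CITED2 replicate 1 or 3. The cause was not tested. Replicate numbers 1 to 3 occur in both groups, but same-numbered libraries showed no shared deviation (Pearson's r across genes -0.038, 0.034 and -0.011), so the number was not taken to pair them. With the replicate block, the members called were 4 higher and 0 lower, and the log2 fold changes were 2.70 for TGFBI and 0.24 for CITED2. Depth limits NOV, SPARC, POSTN and THBS2, whose intervals are wide or which had too few counts to test.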
